A study of Mus musculus with 6 samples.

Results

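The 6 genes described here encode interleukin-9 (Il9), interleukin-3 (Il3), granulocyte-macrophage colony-stimulating factor or GM-CSF (Csf2), interleukin-2 (Il2), leukemia inhibitory factor (Lif) and oncostatin M (Osm). They are a list of symbols, and all 6 were found among the 24493 gene symbols of the deposited table. The list was selected on the measured WT and Ifnar1-SA TPM values of these same libraries, so the levels and the genotype differences of the 6 genes are given as a description, without a test. The study sequenced mRNA from mouse cells labelled Treg (regulatory T cells), obtained by inducing naive CD4 T cells of the spleen to differentiate in culture. There were 3 wild-type (WT) libraries and 3 libraries of genotype Ifnar1-SA. Type I interferons signal through IFNAR1, the product of Ifnar1, and the SA knock-in described in the literature exchanges a phosphorylated serine for alanine so that the receptor is degraded less readily. The labels name no strain, age, inducing agent or number of animals. P-values for other genes therefore measure the spread between these libraries, which may be technical.

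T cells that recognise antigen secrete short-lived cytokines that act on neighbouring cells. IL-2, made mainly by newly activated conventional T cells, sustains Treg cells, which repress their own Il2 gene and consume IL-2 through a high-affinity receptor. IL-9 is the product of Th9 cells and also of mast cells and other helper cells, and cultured T cells make it when transforming growth factor beta meets IL-4. IL-3 and GM-CSF act on myeloid cells and basophils through receptors that share the beta common chain. LIF and oncostatin M belong to the IL-6 family and signal through the gp130 chain, and LIF is known for supporting the Foxp3 programme. Messenger RNAs of several such cytokines are marked for rapid decay by AU-rich elements in the 3′ untranslated region (UTR).

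TPM, in which each gene's reads are divided by transcript length and every library is brought to a total of 1e+06, is the unit used, and levels in it can be compared between genes. The read depth is unknown. Between 21925 and 22958 gene symbols were above 0 in a library. Differences are means of log2(TPM + 1) in Ifnar1-SA minus WT with the standard error (SE) from limma, fitted to the 12141 genes whose average over the libraries reached 1 TPM, a filter that all 6 cytokine genes passed. This scale understates the change of low genes such as Il2. Cells were T cells by their markers: the 6 CD4 T cell genes Cd3d, Cd3e, Cd3g, Cd4, Cd5 and Cd28 summed to 1555 to 1644 TPM in WT and 1694 to 1864 TPM in Ifnar1-SA. Of 7 Treg markers, 4 were low and went against the label. Foxp3, the defining factor, was at 0.276 to 0.697 TPM in WT and 0.746 to 1.82 TPM in Ifnar1-SA. Ikzf2, Lrrc32 and Itgae were at most 1.97, 2.73 and 1.42 TPM. The 3 abundant markers, Tnfrsf18, Ctla4 and Il2ra, are also made by activated conventional T cells. The part of these T cell and Foxp3 levels in the cytokine values was not tested. Of 8 mast cell and basophil markers the highest was Ms4a2 at 1.23 TPM, and summed levels were 1.98 to 4.84 TPM in WT and 1.89 to 3.16 TPM in Ifnar1-SA, with 0 of the 8 at 0 in every library. Lists of 4 NK cell, 8 myeloid, 5 innate lymphoid, 4 B cell and 2 CD8 T cell markers summed to at most 2.27, 6.48, 9.33, 11.3 and 18.1 TPM. Among the libraries, WT 2 and Ifnar1-SA 1 stood apart: genes with transcripts of 4 kb and over had median deviations of 0.202 and 0.158 on the log2 scale there and −0.161 to −0.0281 in the other 4. Genes of 1 to 2 kb (0.0847 and 0.216) and of 2 to 4 kb (0.139 and 0.201) were also highest there. Those under 1 kb were not (−0.128 and −0.0157). Differences are therefore also given without these 2 libraries.

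The 6 genes sit at 4 places in the GRCm38 genome, and 4 of them form close pairs on chromosome 11. Csf2 (chr11:54247271-54249667) and Il3 (chr11:54265303-54267277), both on the minus strand, are 15.6 kb apart with 0 protein-coding genes between them. Osm (chr11:4236420-4241026) and Lif (chr11:4257557-4272514), both on the plus strand, are 16.5 kb apart, again with 0 between. Il2 lies on the minus strand of chromosome 3 (chr3:37120523-37125959) and Il9 on the minus strand of chromosome 13 (chr13:56479277-56482246). A feature that the list did not use is the AU-rich motif ATTTA of the 3′ UTR, searched on the transcript strand with overlapping matches counted. The 30-base stretch with the most matches in the longest annotated 3′ UTR (GENCODE M21) of each gene is shown 5′ to 3′, with the motif in capitals.
Csf2 (chr11:54247320-54247349, minus): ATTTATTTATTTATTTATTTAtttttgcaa
Il2 (chr3:37121038-37121067, minus): ATTTATTTAaatATTTAactttaATTTAtt
Il9 (chr13:56479322-56479351, minus): ATTTAttctATTTAttgaATTTAcaaaacc
Lif (chr11:4272414-4272443, plus): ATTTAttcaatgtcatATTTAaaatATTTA
Osm (chr11:4240951-4240980, plus): ATTTAtaaggcctATTTAtaatgtatattt
Il3 (chr11:54265303-54265332, minus): atgccatcaaatgtcttatcaATTTAtcta

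Csf2 held 9 matches in a 3′ UTR of 317 bases, 5 of them in the stretch shown, and 0.0579% of the 1727 mouse 3′ UTRs within 20% of that length held as many. This share, like those that follow, counts the gene itself. Il2 held 7 in 581 bases (0.473% of 2116 of like length). Il9 packed 3 into a 3′ UTR of only 86 bases (0.359% of 557). Osm held 6 in 1017 bases (4.98% of 2692), Lif 7 in 3180 bases (38.7% of 2168) and Il3 1 in 101 bases (14.2% of 677). The matches are thus dense in Csf2, Il2 and Il9, while the Lif count is common for 3′ UTRs of its length. The annotated 3′ UTR of Il3 holds a single match. Its stretch shown ends at the last annotated base of the gene (chr11:54265303), and sequence beyond that base was not searched. A match is a description of the letters and shows no decay in these cells.

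Il9 was the member with the widest gap between the genotypes. It stood at 63.6, 99.5 and 287 TPM in the WT libraries, compared with 23.03, 11.7 and 43.0 TPM in those of Ifnar1-SA. Every Ifnar1-SA library lay below every WT library, and WT 3 was far above the other two WT libraries. The means were 150 ± 120 TPM (SD, n = 3) and 25.9 ± 15.8 TPM (SD, n = 3), a ratio of 5.80 in favour of WT, and the log2 difference was −2.37 with an SE of 0.64. Among the 12141 genes tested, 23 had a lower difference. Of these, 22 were small RNA genes, whose TPM rests on very short transcripts, and the other was Pet117, listed at 0 in all 3 Ifnar1-SA libraries and named here after its values were seen. Leaving out WT 3 brought the difference to −1.76 and leaving out WT 1 to −2.84. Since the genotypes did not overlap, leaving out a library could change its size but not its sign. Without both WT 2 and Ifnar1-SA 1 it was −2.53.

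Lif differed the other way and was far steadier within a genotype. The WT libraries had 32.8, 40.1 and 25.5 TPM and the Ifnar1-SA libraries 67.1, 50.9 and 52.6 TPM. The lowest Ifnar1-SA library was above the highest WT library. Means were 32.8 ± 7.29 and 56.9 ± 8.91 TPM (SD, n = 3 each), a ratio of 1.73, with a log2 difference of 0.79 and an SE of 0.21. Over the 18 alternative settings the difference stayed between 0.62, without WT 3, and 0.94, without WT 2, and it was 0.82 without both WT 2 and Ifnar1-SA 1. Il9 exceeded Lif in each WT library, by 1.94, 2.48 and 11.2 times, and was below it in each Ifnar1-SA library, at 0.343, 0.230 and 0.818 of its level.

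These 2 genes are shown with their promoters because they are the members whose genotypes did not overlap. The 250 bases before the RefSeq start (GRCm38.p6) were searched on both strands for TGANTCA, the motif of AP-1 factors, and the match is in capitals. It was present once in each, 140 bases before the start of Il9 and 228 before that of Lif, and in 6.75% of 32851 such mouse windows. TTCNNNGAA, bound by STAT factors (7.02% of windows), and the interferon-stimulated response element, searched as GAAA and again GAAA with 2 bases of any kind between (2.98%), matched none of the 5 member windows, those of Il9, Il3, Csf2, Il2 and Lif, which says only that these letters are not in these windows. GGAAA, bound by NFAT factors (55.6% of windows), matched all 5, TATAAA (12.4%) matched Il2 alone, and the AP-1 motif did not match Il3, Csf2 or Il2. For Csf2 the RefSeq start (chr11:54249899) lies upstream of the start of the gene in GENCODE (chr11:54249667). The Csf2 window therefore leaves out the bases just before the GENCODE start, and they were not searched. No binding was measured.
Il9 (chr13:56482258-56482507, minus): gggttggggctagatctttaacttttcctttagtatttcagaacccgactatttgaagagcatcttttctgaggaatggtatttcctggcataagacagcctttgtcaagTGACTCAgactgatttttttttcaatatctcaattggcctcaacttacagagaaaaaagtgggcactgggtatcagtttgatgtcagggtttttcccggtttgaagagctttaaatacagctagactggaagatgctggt
Lif (chr11:4257318-4257567, plus): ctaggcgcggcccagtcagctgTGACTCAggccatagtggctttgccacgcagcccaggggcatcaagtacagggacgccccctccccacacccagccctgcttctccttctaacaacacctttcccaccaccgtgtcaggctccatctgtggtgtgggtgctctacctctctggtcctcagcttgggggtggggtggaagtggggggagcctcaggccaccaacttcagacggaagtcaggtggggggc

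Csf2 was abundant and variable, and its genotypes overlapped throughout. GM-CSF transcripts were at 157, 34.7 and 78.4 TPM in the WT libraries, compared with 66.2, 105 and 121 TPM in those of Ifnar1-SA. Both the highest and the lowest of the 6 values were WT libraries. The means of 90.04 ± 62.0 and 97.4 ± 28.1 TPM (SD, n = 3 each) gave a log2 difference of 0.32 with an SE of 0.53. The difference was −0.23 without WT 2 and 0.84 without WT 1, so a single WT library set its sign. Leaving out both WT 2 and Ifnar1-SA 1 gave 0.02.

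Il3, the neighbour of Csf2, was several-fold lower and showed no genotype gap either. It measured 24.9, 11.3 and 7.35 TPM in the WT libraries and 10.1, 6.83 and 15.2 TPM in those of Ifnar1-SA. WT 1 was the highest library for both genes, but the lowest was WT 2 for Csf2 and Ifnar1-SA 2 for Il3. The log2 difference of −0.30 had an SE of 0.45, became 0.15 without WT 1, and was 0.10 with array weights and −0.38 without both WT 2 and Ifnar1-SA 1. Over the 6 libraries r between the neighbours was 0.44, and Csf2 exceeded Il3 by between 3.06 times in WT 2 and 15.4 times in Ifnar1-SA 2.

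Osm and Il2 completed the set at moderate and very low level. Osm measured 32.5, 19.98 and 22.9 TPM in the WT libraries and 34.1, 27.2 and 31.1 TPM in those of Ifnar1-SA, with WT 1 inside the Ifnar1-SA range. Its log2 difference was 0.31 with an SE of 0.21. It was 0.16 without WT 2, 0.50 without WT 1 and 0.09 without both WT 2 and Ifnar1-SA 1. Il2 was near the filter and measured 1.18, 1.76 and 0.961 TPM in the WT libraries and 0.732, 0.530 and 1.18 TPM in those of Ifnar1-SA. Genotypes overlapped through Ifnar1-SA 3, and the log2 difference was −0.34 with an SE of 0.23. Only 1.19% of the genes tested had a lower mean TPM than Il2. In bulk RNA, fewer cells expressing a gene and less RNA per cell cannot be told apart, and this holds for each of the 6.

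**Figure D1:**
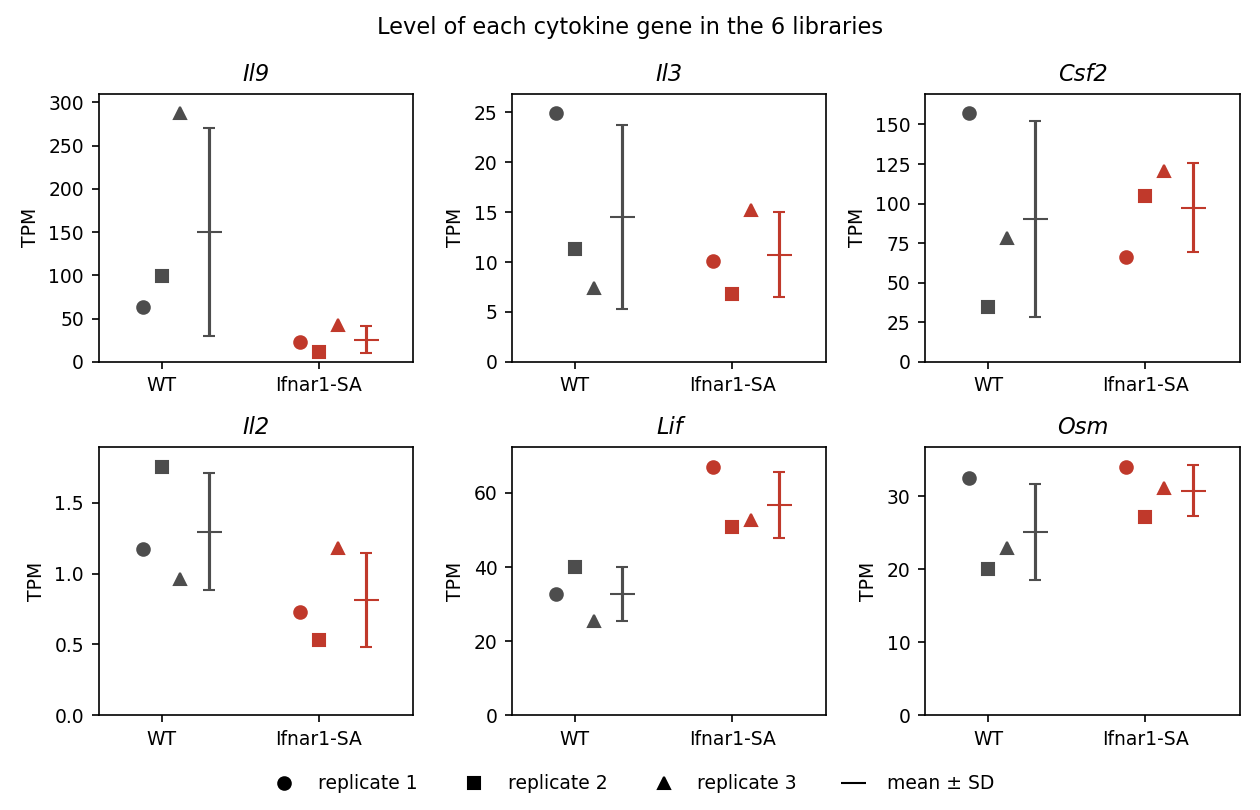
Level in TPM (linear axis from 0) of each of the 6 cytokine genes in the 3 WT (grey) and 3 Ifnar1-SA (red) libraries, with marker shape for the replicate number and mean ± SD (n = 3) beside the points. The genotypes are separate for Il9, with WT from 63.6 TPM and Ifnar1-SA up to 43.0 TPM, and for Lif, with WT up to 40.1 TPM and Ifnar1-SA from 50.9 TPM, and overlap for the other 4 genes.

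Over all 12141 genes tested, 0.0165% were past an adjusted p of 0.05 as higher and 0.0412% as lower in Ifnar1-SA (limma, two-sided, Benjamini-Hochberg), and all 7 genes behind those shares were microRNA precursors listed at 0 in every library of a genotype. Genes with every Ifnar1-SA library above every WT library made up 1.97% of those tested and included Lif. Genes with every Ifnar1-SA library below made up 3.80% and included Il9. Since these values were in view when the genes were listed, nothing is read from the counts. By mean log2 value 3 of the 6 were higher and 3 lower, with a median difference of 0.00061 beside −0.056 for all genes tested. Of all genes tested, 4499 were higher and 7642 lower, and 379 were at an unadjusted p under 0.05, which is the background for the counts of each list that follows.

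**Figure D2:**
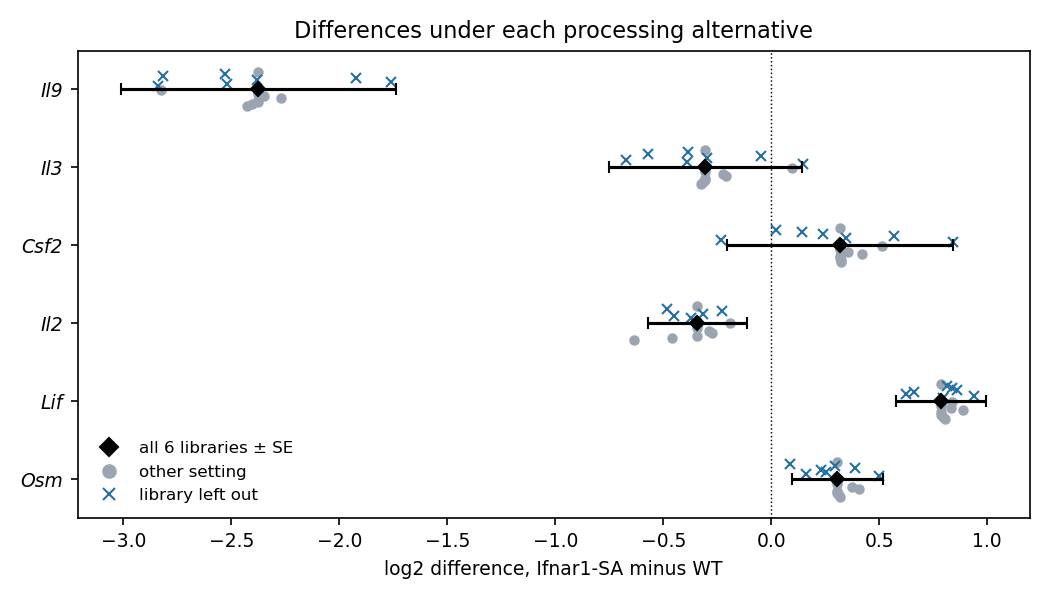
Log2 difference (Ifnar1-SA minus WT, log2(TPM + 1) scale) of each cytokine gene with all 6 libraries (black diamond, bar ± SE), under other settings (grey) and with 1 library or a pair left out (blue crosses). Il9 stays between −2.84 and −1.76 and Lif between 0.62 and 0.94, while crosses fall on both sides of 0 for Il3 and Csf2.

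The 6 genes also differed in how much they varied among libraries of a genotype. Il9, Csf2 and Il3 had within-genotype SDs of 1.01, 0.82 and 0.69 on the log2 scale, above those of 94.7%, 93.8% and 93.1% of genes tested. Lif and Osm, each with an SD of 0.27, and Il2, with 0.26, were close to the median of 0.25 over all genes. In WT the order of mean TPM was Il9, Csf2, Lif, Osm, Il3 and Il2, and the libraries of neighbours in that order overlapped except those of Il3 and Il2. In Ifnar1-SA it was Csf2, Lif, Osm, Il9, Il3 and Il2, and the neighbours overlapped except Lif and Osm and, again, Il3 and Il2. Il3 was the fifth and Il2 the last in every one of the 6 libraries. Il9 led in WT 2 and WT 3 and was second to Csf2 in WT 1, whereas in Ifnar1-SA it stood behind Csf2 and Lif in each library.

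Receptors for these cytokines ranged from the abundant IL-2 receptor chains, through low levels, to chains near 0. The 3 chains of the IL-2 receptor were abundant: Il2ra at 359 to 444 TPM, Il2rb at 331 to 460 TPM and Il2rg, which IL-9 also uses, at 779 to 1126 TPM over the 6 libraries. Il9r, the chain specific to IL-9, was at most 0.119 TPM and Osmr, a chain of the oncostatin M receptor, at most 0.387 TPM. Chains for IL-3 and GM-CSF were low, with Il3ra at 2.37 to 5.07 TPM, Csf2ra at 3.39 to 4.61 TPM, the beta common chain Csf2rb at 0.766 to 1.48 TPM and its mouse paralog Csf2rb2 at 0.578 to 1.28 TPM. Reads of the last 2 may be divided uncertainly, since the genes are near-identical copies. Lifr was at 2.40 to 4.83 TPM and its partner Il6st, which encodes gp130, at 1.25 to 1.72 TPM. Of 11 chains 8 passed the filter and 0 were past the threshold (limma, lowest adjusted p = 0.9997), with 0 at an unadjusted p under 0.05, 5 higher, 3 lower and a median log2 difference of 0.055. The largest difference was 0.37 with an SE of 0.20 for Il3ra. For the 3 chains under the filter the exact two-sided permutation p was 0.7 (Il9r), 0.9 (Csf2rb2) and 0.9 (Osmr), where 0.1 is the smallest that 3 against 3 libraries allow.

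**Figure D3:**
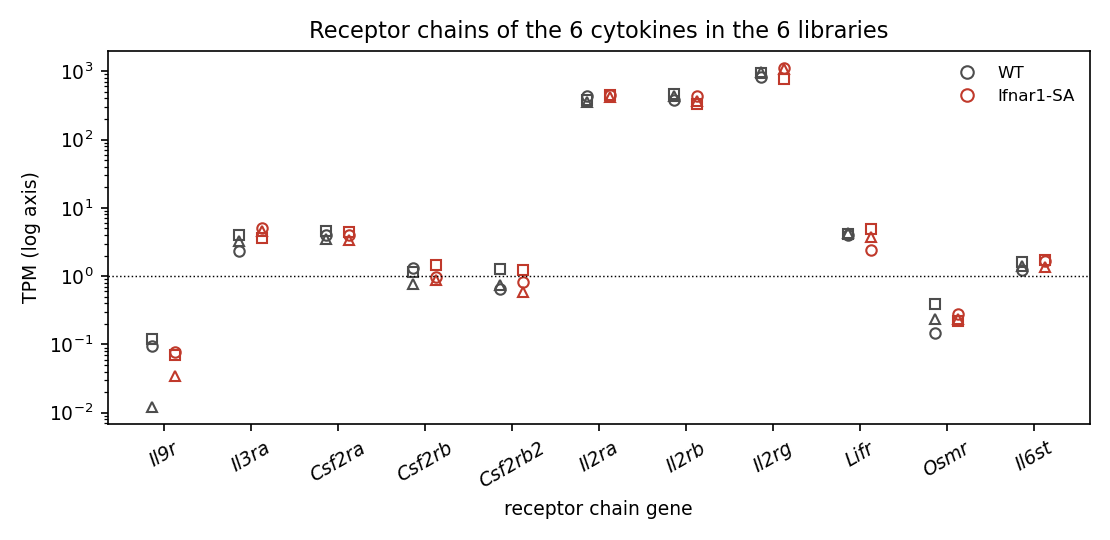
Level (TPM, log axis) of the 11 receptor chain genes in WT (grey) and Ifnar1-SA (red) libraries, with circle, square and triangle for replicates 1, 2 and 3 and a dotted line at 1 TPM. The IL-2 receptor chains lie between 331 and 1126 TPM, the other 8 chains at 5.07 TPM or less, and the genotypes overlap for each chain.

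Downstream of these receptors, JAK kinases and STAT factors carry the signal to the nucleus. Of 9 such genes 0 were past the threshold (limma, lowest adjusted p = 0.9997), with 0 at an unadjusted p under 0.05, 2 higher, 7 lower and a median log2 difference of −0.20. That median was −0.10 with median-of-ratios scaling and between −0.35 and −0.043 with 1 library left out. Stat3, which relays LIF and oncostatin M signals, differed by −0.37 with an SE of 0.26, and Stat6, which relays IL-4, by −0.24 with an SE of 0.21. Of 15 target genes of STAT5 or STAT3, 14 passed the filter and 0 the threshold (limma, 0 at an unadjusted p under 0.05), with 4 higher, 10 lower and a median of −0.11. The median was −0.015 with median-of-ratios scaling and between −0.18 and −0.054 with 1 library left out. Cish, a feedback inhibitor that STAT5 switches on, named after its values were seen, was at 184 ± 4.45 and 174 ± 31.9 TPM (SD, n = 3 each). Gzmb, the gene of a cytotoxic protease, measured 1165, 437 and 596 TPM in the WT libraries and 746, 1619 and 1595 TPM in those of Ifnar1-SA, with WT 1 inside the Ifnar1-SA range. Perforin, Prf1, differed by 0.69 with an SE of 0.35, and the feedback inhibitor Socs2 by −0.23 with an SE of 0.17.

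Among 38 transcription factors known to act on cytokine genes, 35 passed the filter and 0 the threshold (limma, lowest adjusted p = 0.9997), with 2 at an unadjusted p under 0.05, 13 higher, 22 lower and a median of −0.095 that became 0.0052 with median-of-ratios scaling. The median lay between −0.18 and 0.028 with 1 library left out, and lower genes were also the larger part of all genes tested. Batf3, an AP-1 family factor, measured 371, 395 and 345 TPM in the WT libraries and 273, 265 and 214 TPM in those of Ifnar1-SA, without overlap, with a log2 difference of −0.57 and an SE of 0.16. Irf8 measured 74.7, 79.8 and 60.8 TPM in the WT libraries and 59.1, 48.8 and 37.0 TPM in those of Ifnar1-SA, also without overlap (−0.58, SE 0.21). Smad3, which relays transforming growth factor beta, differed by −0.31 with an SE of 0.18. Further factors known for Il9 were named after their values were seen. Spi1, which encodes PU.1, a factor tied to Il9 in Th9 cells, was at most 0.199 TPM. Batf, a further AP-1 factor needed for Il9, was at 829 ± 16.1 and 920 ± 54.9 TPM, without overlap, and Irf4, its partner, at 46.6 ± 9.09 and 44.1 ± 12.2 TPM (SD, n = 3 each). Of 11 factors that bind AU-rich or stem-loop elements and promote or restrain decay, 0 were past the threshold (limma), 1 was at an unadjusted p under 0.05, 6 were higher and 5 lower, with a median of 0.0056. Zfp36l1, which speeds decay through AU-rich elements, measured 14.7, 11.8 and 14.8 TPM in the WT libraries and 17.4, 17.0 and 21.0 TPM in those of Ifnar1-SA, without overlap (log2 difference 0.40, SE 0.16). Its relative Zfp36 was at 14.8 ± 1.35 and 13.2 ± 1.74 TPM (SD, n = 3 each), and the RNase gene Zc3h12d differed by −0.26 with an SE of 0.21.

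Other cytokines of these cells give the scale for the 6. Of 25 further cytokine and chemokine genes 19 passed the filter, 0 were past the threshold (limma, lowest adjusted p = 0.945), 5 were at an unadjusted p under 0.05, 11 were higher and 8 lower, and the median was 0.17. Lymphotoxin alpha, Lta, had the smallest p. It measured 164, 166 and 244 TPM in the WT libraries and 109, 63.0 and 101 TPM in those of Ifnar1-SA, a difference of −1.07 with an SE of 0.27, and like Il9 it was highest in WT 3 and lowest in Ifnar1-SA 2. Il6 was low, with 1.15 to 2.83 TPM in WT and 0.543 to 0.715 TPM in Ifnar1-SA, while Il10 lay apart in the other direction (135 to 222 and 256 to 344 TPM). Il5, Il13 and Il4, neighbours of Il3 and Csf2 on chromosome 11, were at 342 to 565, 48.0 to 219 and 230 to 362 TPM in WT and at 509 to 590, 99.2 to 200.4 and 290 to 644 TPM in Ifnar1-SA, all overlapping. Il21, the neighbour of Il2 on chromosome 3, was at 31.4 to 112 and 39.1 to 96.2 TPM, well above Il2 in every library. Of the genes listed around the 4 places, these 4 cytokines included, 8 of 11 near Il3 and Csf2, 8 of 9 near Lif and Osm, 7 of 8 near Il2 and 2 of 10 near Il9 passed the filter, and 0 were past the threshold (limma) or at an unadjusted p under 0.05.

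**Figure D4:**
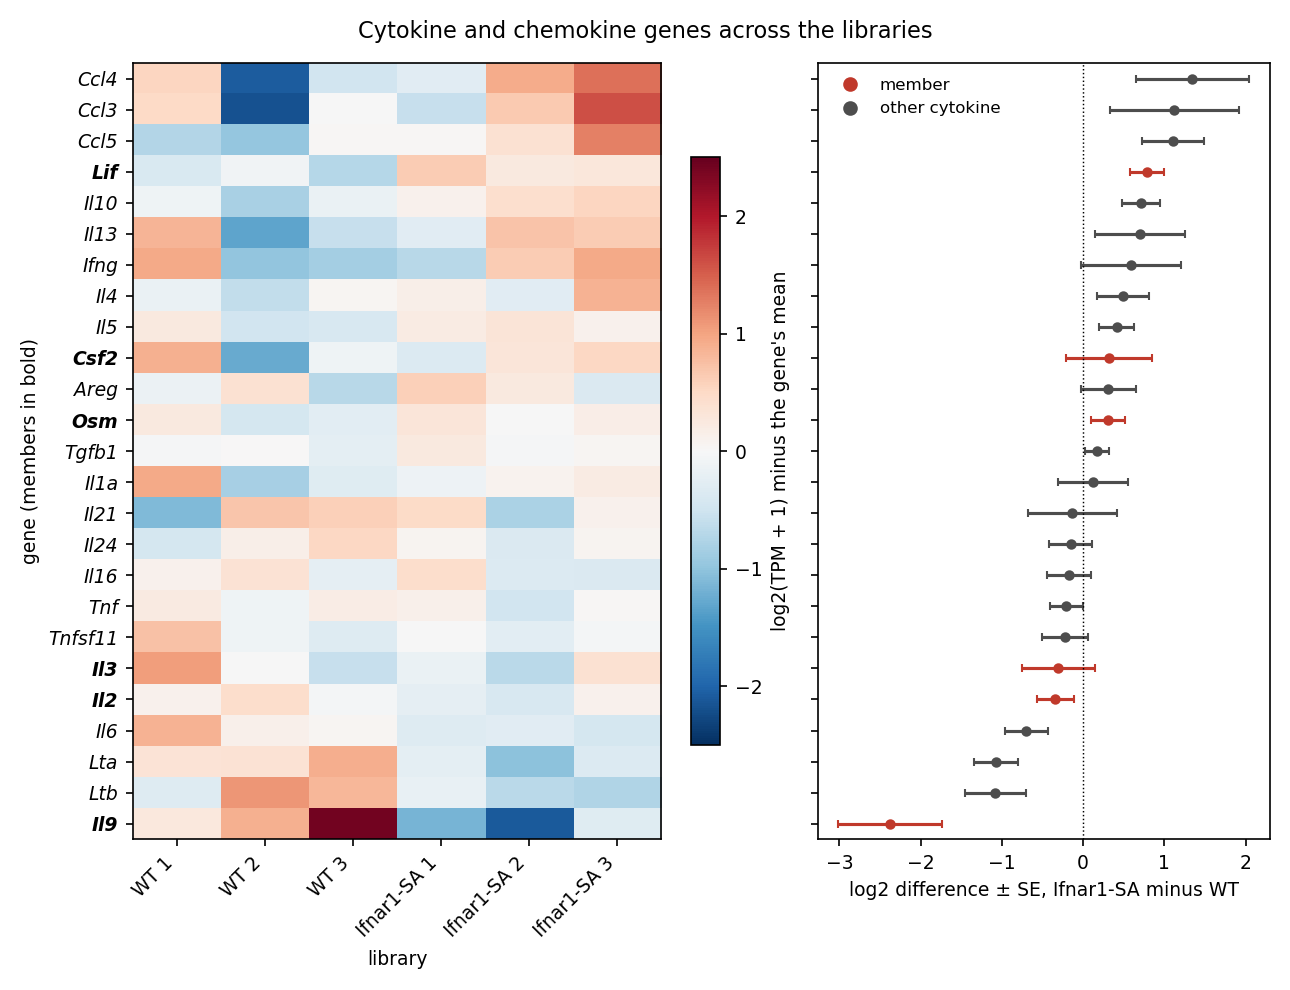
Left, log2(TPM + 1) minus the gene's mean for the 6 members (bold) and the 19 other tested cytokine genes (rows, ordered by difference) in each library (columns). Right, the log2 difference ± SE of each, members in red. Il9 is lowest at −2.37 and Lif at 0.79 is below Ccl3, Ccl4 and Ccl5 alone. WT 2 is the lowest library of Csf2, Osm, Il4, Il5, Il10, Il13, Ifng, Ccl3, Ccl4, Ccl5 and Il1a, and not of the rest.

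Likeness of pattern was measured by Pearson's r of log2(TPM + 1) over the 6 libraries, as a description, and the best of 12141 genes over 6 points will be high whatever the gene. This r contains the genotype difference, which was in view when the members were listed. For Il9 the most similar genes were Cyb5a (r = 0.99), Nr4a2 (0.97) and Cd55 (0.97), and within the cytokine list Lta (0.96). Over the 6 deviations from the genotype means these r were 0.98, 0.92, 0.93 and 0.86, and Il24 (0.90) was closer than Lta. For Lif the most similar genes over the 6 libraries were Tmem221 (0.98), Myo1f (0.97) and Fam219a (0.97), with 0.91, 0.90 and 0.86 over the deviations. Csf2 was closest to Nedd8 (0.998), Ndufs6 (0.99) and Snapc5 (0.99), and within the list to Il13 (0.95) and Il1a (0.94). Tespa1, Lamp2 and Cd96 (0.98, 0.96 and 0.96) were closest to Il3, Mpv17l2, Kcnk5 and Bspry (0.99 each) to Osm, and Kbtbd2, Mob1b and Mir466f-2 (0.98, 0.93 and 0.93) to Il2.

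A library-wide property moved with Csf2. Genes whose longest coding transcript is under 1 kb, as those of Csf2, Il3 and Il9 are (800, 629 and 536 bases), as a class had their lowest median deviation in WT 2 (−0.13 on the log2 scale, 699 genes) and their highest in WT 1 (0.078). Csf2 itself deviated by −1.26 and 0.89 in those libraries. Genes of 4 kb and over had their highest median in WT 2 (0.20, 3080 genes). The part of this in the Csf2 values was not tested. Il9 did not share the order, with deviations of 0.25, 0.89 and 2.41 in WT 1, WT 2 and WT 3. Il3 shared it in part. It was highest in WT 1 (1.05) but at −0.017 in WT 2, and lowest in Ifnar1-SA 2 (−0.67), where the class under 1 kb was at 0.059.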

How the data were processed

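The authors quantified mRNA-seq reads with Salmon (version not given) against a mouse genome that the submitters' processing notes name both mm10 and GRCm38, and deposited a single table of TPM values per gene symbol for the 6 libraries. RNA was total RNA, and libraries were labelled as mRNA-seq. Read depth is unknown, so no counting error could be attached and no count model was used. Each library sums to 1e+06 TPM, so a few abundant genes can lower all others. All sample columns matched a title, and 0 were left unused.

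The members and all gene lists were chosen with earlier results of these data known. Values were converted to log2(TPM + 1). Genes averaging 1 TPM or more were fitted with limma 3.58.1 (R 4.3.3, intensity trend, genotype as the only term), with Benjamini-Hochberg adjustment over 12141 genes and a threshold of 0.05. Genes below the filter were given an exact two-sided permutation test. The fit was tested on simulated data in which each gene varied independently and no library was shifted. That test therefore does not cover the library-wide shifts seen here. Named genes were the 6 members, the receptor chains, cytokines neighbouring a member, the up to 3 genes of smallest p in each list, and the 3 genes most like each member. Further genes named are said to be so, and 1 gene that the rule names is not reported here. Alternatives changed the pseudocount, filter, scaling, variance model, block and libraries. Positions and 3′ UTRs came from GENCODE M21 (GRCm38) and promoter windows, found for 5 of the 6 members, from RefSeq (GRCm38.p6). Figures used matplotlib 3.10.9 and sequence searches Python 3.11.15.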

Additional observations from a re-analysis of the deposited data

How the results depend on the processing

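Il9 stayed lower and Lif and Osm higher in Ifnar1-SA under all 18 alternatives, and Il2 lower under the 15 that gave it a value. Not all of these could have given another sign. The filter, intensity trend, robust empirical Bayes and block settings left each value they gave as it was, as did leaving out small RNA genes. For Il9 and Lif, whose genotypes did not overlap, leaving out libraries could not change the sign either. Il2 was below the filter with a mean of at least 5 TPM, without WT 2 and without both WT 2 and Ifnar1-SA 1. It moved to −0.63 with a pseudocount of 0.1. Over the named genes that are not members, 975 of 1009 alternative values kept the sign, 34 had the other sign and 0 were past the threshold. The settings that could not move a value are counted among the 1009.

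The count of all genes past the threshold, 2 higher and 5 lower, was unsteady. It was 3 and 12 with a pseudocount of 0.1, 3 and 11 with 0.5, 1 and 5 with no filter, 0 and 1 with a mean of at least 5 TPM, 1 and 5 with median-of-ratios scaling, 1 and 6 with quantile scaling, 4 and 8 with robust empirical Bayes, and 3 and 9 with array weights. It was 0 and 0 without both WT 2 and Ifnar1-SA 1, and 2 and 0 with small RNA genes left out, an alternative chosen after seeing the data, where Il1r2 and Irf7 passed at an adjusted p of 0.0358 each (limma). Leaving out 1 library gave 2 to 10 higher and 8 to 26 lower. The cause was not tested.

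The median of the decay factors was 0.098 with median-of-ratios scaling and between −0.077 and 0.0099 with 1 library left out, and that of the receptor chains between −0.018 and 0.087. The median of all genes moved from −0.056 to 0.034 with median-of-ratios scaling. With the replicate number as a block the calls were 0 and 0. The labels do not say whether same-numbered libraries share more than a number. Their correlations of deviations were −0.112, −0.106 and 0.151, and those of the other pairs lay between −0.169 and 0.248. These few values cannot show whether the libraries were paired. Depth is unknown, and 3 libraries a genotype limit what single genes such as Il3 and Csf2 can show.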

Other observations

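Both close gene pairs were compared within libraries, which removes the scaling of a library. Lif exceeded Osm by 1.01, 2.01 and 1.12 times in WT and by 1.97, 1.87 and 1.69 times in Ifnar1-SA, so WT 2 lay above all 3 Ifnar1-SA libraries while the other two WT libraries lay below them. Il9, which is in neither pair, was set beside Il4, a cytokine that favours its expression. It stood at 0.202, 0.434 and 0.794 of the Il4 level in WT. In Ifnar1-SA it stood at 0.0594, 0.0403 and 0.0667, without overlap. The ratio contains the Il9 gap that was in view when the genes were listed, so nothing is read from the separation.

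Among the other genes of the cytokine families to which the members belong, 7 of 13 passed the filter, 0 were past the threshold (limma, lowest adjusted p = 0.9997) and 1 was at an unadjusted p under 0.05. Of the 7, 4 were higher and 3 lower. Ebi3, a subunit of IL-27 and IL-35, differed by 0.37 with an SE of 0.19 and Il5 by 0.41 with an SE of 0.22 on the log2 scale.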
